A study of Mus musculus with 9 samples.

Results

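Compound 10 was compared with its vehicle in splenic CD4+ T cells that received no stimulus, in 4 of the 9 libraries of the series. The 2 libraries titled Comp10_US came from cells given 12.5 µM compound 10, which the series describes as a chemical inhibitor of NFAT:AP-1, for 1 h. The 2 libraries titled DMSO_US came from cells given DMSO, the solvent, for the same time. Both groups were total CD4+ T cells of C57BL/6 mice, an inbred strain, enriched by removing other cells, and neither received PMA or ionomycin. The labels give 2 h for the step after the pretreatment in a phrase that names both states, and whether that time applies to the unstimulated cells is not explicit. The other 5 libraries, 3 with compound 10 and 2 with vehicle, came from cells stimulated for 2 h with PMA (10 nM), an activator of protein kinase C, plus the calcium ionophore ionomycin (1 µM). They served to estimate the spread between libraries and, in a separate section, to set the compound effect in unstimulated cells against that in stimulated cells. Nothing in the labels ties replicate libraries to different mice or cultures, and the p-values below therefore gauge the variation among these libraries alone, some or all of which may be technical.

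In a resting T cell NFAT proteins are phosphorylated and held in the cytosol, and AP-1 is scarce. Calcium activates calcineurin, which releases NFAT to the nucleus, where it binds beside AP-1 at composite elements of cytokine genes such as Il2 and Il4. Other programmes run in resting cells: interleukin 7 receptor signalling maintains survival, and a low tone of interferon signalling keeps interferon-inducible genes expressed.

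Libraries held 13420384 and 13905405 estimated counts for compound 10 and 10669821 and 16784788 for vehicle. Cytosolic ribosomal RNA made up 6.67% and 3.11% of compound 10 libraries and 4.72% and 26.3% of vehicle libraries, where library 2, at 26.3%, stood apart. Principal component 2 (22.3% of the variance) placed the compound 10 libraries at -34.88 and -29.77 and the vehicle libraries at 29.5 and 31.17. Levels are CPM, counts relative to the scaled library size, given for library 1 and then library 2. Differences are log2 fold changes of compound 10 over vehicle with their standard errors (SE).

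The label of CD4+ T cells held against the markers, and transcripts of other lineages were present as well. All 14 listed CD4 T cell identity genes were detected, and Cd4, the coreceptor that names the subset, had 166 and 136 CPM with compound 10, against 97.3 and 116 CPM with vehicle. Cd8a, which marks the other main T cell subset, gave 0 and 0 estimated counts with compound 10 and 1.01 and 0 with vehicle, but its partner Cd8b1 was detected, and the pair summed to 5.77 and 6.55 CPM with compound 10 and 4.89 and 6.52 CPM with vehicle. A value near 0 in an annotated entry need not mean absence of the gene. An entry of Aldoa, a glycolysis enzyme gene, had at most 1 count in every library. All 22 listed glycolysis and hypoxia genes were nevertheless tested, so that entry need not be the gene's only one. Summed over 14 B cell markers, the level was 683 and 568 CPM with compound 10 and 789 and 525 CPM with vehicle, so the groups overlapped. The B cell sum was thus not small beside that of the 14 CD4 T cell identity genes. These summed to 2286 and 2074 CPM with compound 10 and 1426 and 1577 CPM with vehicle. The 11 natural killer cell markers summed to 24.4 and 23.1 CPM with compound 10, against 16.1 and 12.3 CPM with vehicle. Over 14 monocyte, macrophage and dendritic cell markers the sums were 108 and 82.3 CPM with compound 10 and 89.5 and 79.7 CPM with vehicle, with Itgam, the macrophage integrin gene, at 0 in every unstimulated library. Neutrophil markers (10 genes) summed to 4.67 and 7.08 CPM with compound 10 and 12.1 and 7.35 CPM with vehicle, and erythroid and platelet markers (11 genes) to 3.77 and 5.37 CPM with compound 10 and 25.3 and 4.29 CPM with vehicle. Of 39 tested markers in these 6 lists of other cell types, Gzma, a cytotoxic granule enzyme, was the 1 gene that passed. The natural killer sum was higher in both compound 10 libraries, and its part in the results below was not tested. In bulk samples like these, fewer cells of a type and less RNA per cell cannot be told apart.

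The clearest group of lower genes was that of the interferon-inducible GTPases, so promoters of 4 of them are shown first. Each window runs from 250 bases before to 50 bases after the RefSeq start on GRCm38.p6, read along the gene's strand. Capitals mark matches to the gamma interferon activated site (GAS, TTCNNNGAA, the same on both strands) and to the site of interferon-stimulated response elements (ISRE, the letters GAAA, any 2 bases and GAAA again, or TTTC, any 2 bases and TTTC on the other strand). Gbp2 spans chr3:142620413-142620712 (+), Gbp7 chr3:142530086-142530385 (+), Igtp chr11:58199306-58199605 (+) and Tgtp1 chr11:48992197-48992496 (-).
Gbp2: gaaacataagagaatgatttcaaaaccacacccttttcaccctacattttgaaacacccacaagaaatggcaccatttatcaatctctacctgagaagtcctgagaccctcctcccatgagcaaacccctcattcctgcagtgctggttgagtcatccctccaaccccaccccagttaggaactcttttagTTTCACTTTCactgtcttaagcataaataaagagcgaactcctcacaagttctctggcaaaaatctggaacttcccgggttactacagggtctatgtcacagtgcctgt
Gbp7: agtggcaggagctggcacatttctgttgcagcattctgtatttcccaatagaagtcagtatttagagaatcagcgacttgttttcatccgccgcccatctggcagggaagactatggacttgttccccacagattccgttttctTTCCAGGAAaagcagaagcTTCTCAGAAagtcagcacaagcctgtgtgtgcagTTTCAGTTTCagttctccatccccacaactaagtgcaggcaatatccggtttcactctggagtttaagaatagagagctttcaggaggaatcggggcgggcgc
Igtp: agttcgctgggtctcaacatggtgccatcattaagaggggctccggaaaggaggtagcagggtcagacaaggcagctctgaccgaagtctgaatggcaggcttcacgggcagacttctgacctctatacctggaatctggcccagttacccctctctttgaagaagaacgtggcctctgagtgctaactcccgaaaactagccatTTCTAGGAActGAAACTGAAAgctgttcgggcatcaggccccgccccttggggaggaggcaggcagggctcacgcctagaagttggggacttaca
Tgtp1: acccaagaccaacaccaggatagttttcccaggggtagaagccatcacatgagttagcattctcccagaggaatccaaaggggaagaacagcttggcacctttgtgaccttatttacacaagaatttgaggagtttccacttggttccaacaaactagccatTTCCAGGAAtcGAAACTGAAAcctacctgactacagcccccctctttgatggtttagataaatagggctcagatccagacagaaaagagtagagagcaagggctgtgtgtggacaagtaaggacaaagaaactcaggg

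With positions counted from the RefSeq start, the ISRE match began at -59 in Gbp2, -53 in Gbp7, -34 in Igtp and -77 in Tgtp1. GAS matches began at -106 and -87 in Gbp7, at -45 in Igtp and at -88 in Tgtp1, and the Gbp2 window held none. No GAS match overlapped an ISRE match in these windows. RefSeq windows were on hand for 11 of the 19 listed GTPase genes, 12 windows in all. An ISRE match stood in 10 of the 12 (83.3%), against 3.44% of all 32851 windows, a GAS match in 7 (58.3%), against 8.3%, and both in 7 (58.3%), against 0.454%. The windows printed above all hold an ISRE match. Neither match stood in the window of Ifi47 or in the Gbp3 window that begins at chr3:142560106. All 11 genes with a window were called lower, so no unchanged member stands beside them. The 12 windows are not independent, as Gbp3 has windows at separate starts and those of Igtp and Irgm2 are alike around the sites. These counts describe letters in the windows, and no protein binding was measured.

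Across 14011 tested genes, compound 10 changed 1031 in unstimulated cells (7.36%), 623 higher (4.45%) and 408 lower (2.91%; edgeR's quasi-likelihood test, Benjamini-Hochberg adjusted p under 0.05). Of these, 676 moved at least 2-fold. The median log2 fold change of all genes was -0.01. Both compound 10 libraries lay above both vehicle libraries for 28.2% of genes and below them for 27.3%. Without a single unstimulated library the count dropped to 174 (compound 10 library 1), 278 (compound 10 library 2), 263 (vehicle library 1) and 269 (vehicle library 2), as 1 library then stood against 2. On log2(TPM + 1) with limma the count was 231.

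**Figure D1:**
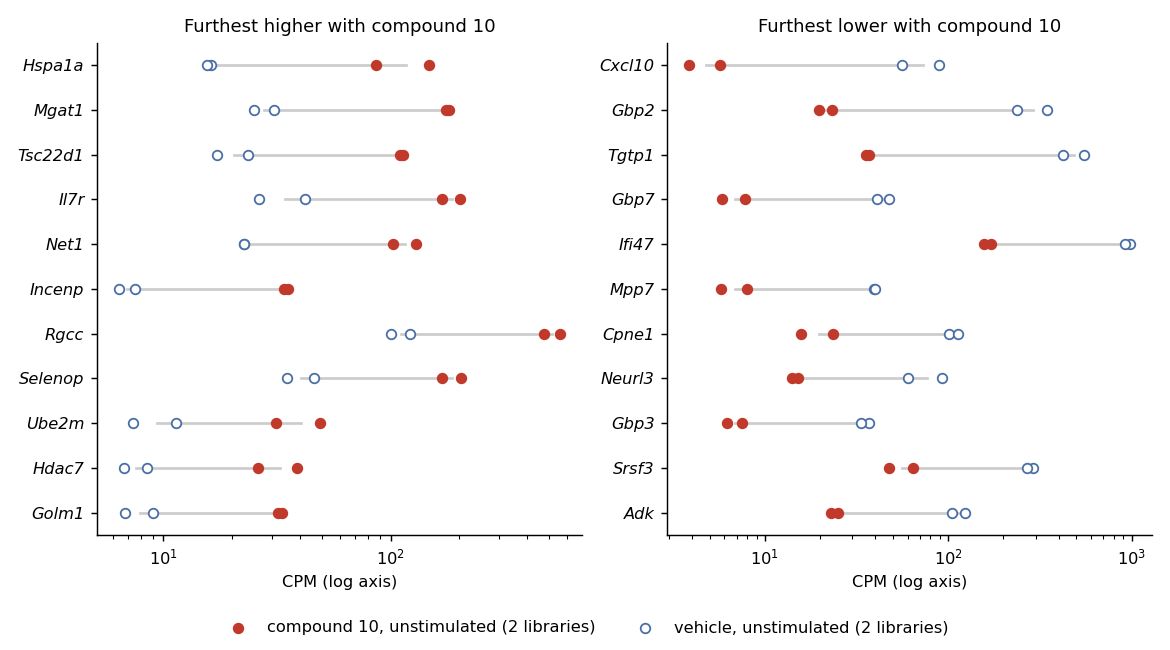
Levels in CPM (log axis) of 11 of the genes furthest higher and 11 of those furthest lower with compound 10 in unstimulated cells, filled points for the 2 compound 10 libraries, open points for the 2 vehicle libraries, with a line joining the group means. The groups are apart for each gene, as the choice required, for example Cxcl10 at 5.71 and 3.87 CPM with compound 10 and 88.9 and 56.3 CPM with vehicle.

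Interferon-inducible GTPases defend cells against intracellular microbes. They comprise guanylate-binding proteins (Gbp genes), which coat and rupture the compartments of microbes, and immunity-related GTPases (Igtp, Irgm1, Irgm2, Iigp1, Tgtp1 and others), and the list also holds the antiviral Mx genes. Of 18 tested members, 14 fell with compound 10 (77.8%, against 2.91% of all tested genes), and the list's median log2 fold change was -2.04. The untested member, Mx2, gave at most 7 counts in an unstimulated library. Gbp2 (chr3:142620602-142638008 in GENCODE M21) had 23.2 and 19.7 CPM with compound 10, against 347 and 236 CPM with vehicle (-3.76, SE 0.43; adjusted p = 0.00142). Gbp5 had 1.49 and 3.15 CPM with compound 10, against 43.0 and 40.9 CPM with vehicle (-4.15, SE 0.35; adjusted p = 0.000115). In both genes the higher compound 10 library was more than 10-fold below the lower vehicle library.

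Members of the immunity-related family were lower as well, to differing degrees and with Gm4951 short of the threshold. Ifi47 had 171 and 157 CPM with compound 10, against 986 and 916 CPM with vehicle (-2.54, SE 0.21; adjusted p = 0.000114), and Gm12250 had 20.8 and 19.9 CPM, against 161 and 141 CPM (-2.89, SE 0.27). Tgtp1 had 37.0 and 35.8 CPM with compound 10, against 551 and 421 CPM with vehicle (-3.74, SE 0.28). Tgtp1 and its near-identical neighbour Tgtp2 may trade reads, and their sum was 119.7 and 127 CPM with compound 10, against 874 and 662 CPM with vehicle (-2.64, SE 0.27; adjusted p = 0.000291). In every one of these the groups were far apart. Further members, named after their values were seen, were Iigp1 (-4.24, SE 0.53), Gbp4 (-2.15, SE 0.29), Igtp (-1.93, SE 0.28), Irgm2 (-1.90, SE 0.27), Gbp6 (-1.81, SE 0.33) and Irgm1 (-1.41, SE 0.23). Gbp7 (-2.69, SE 0.26) and Gbp3 (-2.37, SE 0.24) were among the furthest lower of all genes. Leaving out any 1 of the 9 libraries left 12 to 16 members lower, and of those named Gbp6 and Irgm1 lost their call, Gbp6 without any of the 4 unstimulated libraries (adjusted p from 0.0526 to 0.0888) and Irgm1 without compound 10 library 1 (0.0718). Gbp8 (-0.93, SE 0.32; adjusted p = 0.101), Gbp9 (-0.66, SE 0.25; 0.138), Gm4951 (-1.84, SE 0.57; 0.0729) and Mx1 (0.63, SE 0.95; 0.751) did not pass.

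Some genes of the interferon regulatory factor family fell too, and whether they act on the GTPase genes here was not tested. Irf8, an interferon regulatory factor, had 25.7 and 22.6 CPM with compound 10, against 95.3 and 80.0 CPM with vehicle (-1.86, SE 0.19; adjusted p = 0.000309). The compound 10 libraries were close together and lay below each vehicle library, and the call held without any single library. Of 14 tested interferon regulatory factors and STATs 4 were lower (28.6%, against 2.91% of all genes; list median -0.28), the others being Irf1 (-0.95, SE 0.20), Irf9 (-0.87, SE 0.19) and Irf4, named after its value was seen (-2.08, SE 0.50). These 3 calls were less stable: Irf1 and Irf9 missed the threshold without any of the 4 unstimulated libraries (adjusted p from 0.0615 to 0.147 and from 0.0953 to 0.154), and Irf4 did so without 6 of the 9 libraries (0.0579 to 0.214). Without a single unstimulated library the list count was 1 or 2.

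Among interferon-inducible genes that do not encode GTPases the counts were smaller. Cxcl10, a chemokine gene induced by interferon gamma, had 5.71 and 3.87 CPM with compound 10, against 88.9 and 56.3 CPM with vehicle (-3.92, SE 0.36; adjusted p = 0.000309). Socs1, which encodes a feedback inhibitor of interferon receptors, had 117 and 104 CPM, against 311 and 413 CPM (-1.71, SE 0.24; adjusted p = 0.00172). Both genes kept their call without any single library. Of 21 other interferon-stimulated genes 5 were lower (23.8%, against 2.91% of all genes, list median -0.70): Parp14 (-1.53, SE 0.30), Rtp4 (-2.39, SE 0.48), Samhd1 (-0.80, SE 0.19), Trim30a (-1.46, SE 0.36) and Usp18 (-0.75, SE 0.21). Each of these 5 calls was lost without 2 or more of the libraries, and the count was 0 without compound 10 library 2 and 1 without each of the other unstimulated libraries. Of 14 genes for antigen presentation by MHC class I 2 were lower (14.3%, against 2.91% of all genes). These were Tap1, a peptide transporter subunit (-0.97, SE 0.22), and Tapbp, its partner tapasin (-0.84, SE 0.21). The Tap1 call was lost without vehicle library 1 or either compound 10 library, and the Tapbp call without any unstimulated library (adjusted p from 0.0773 to 0.177).

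**Figure D2:**
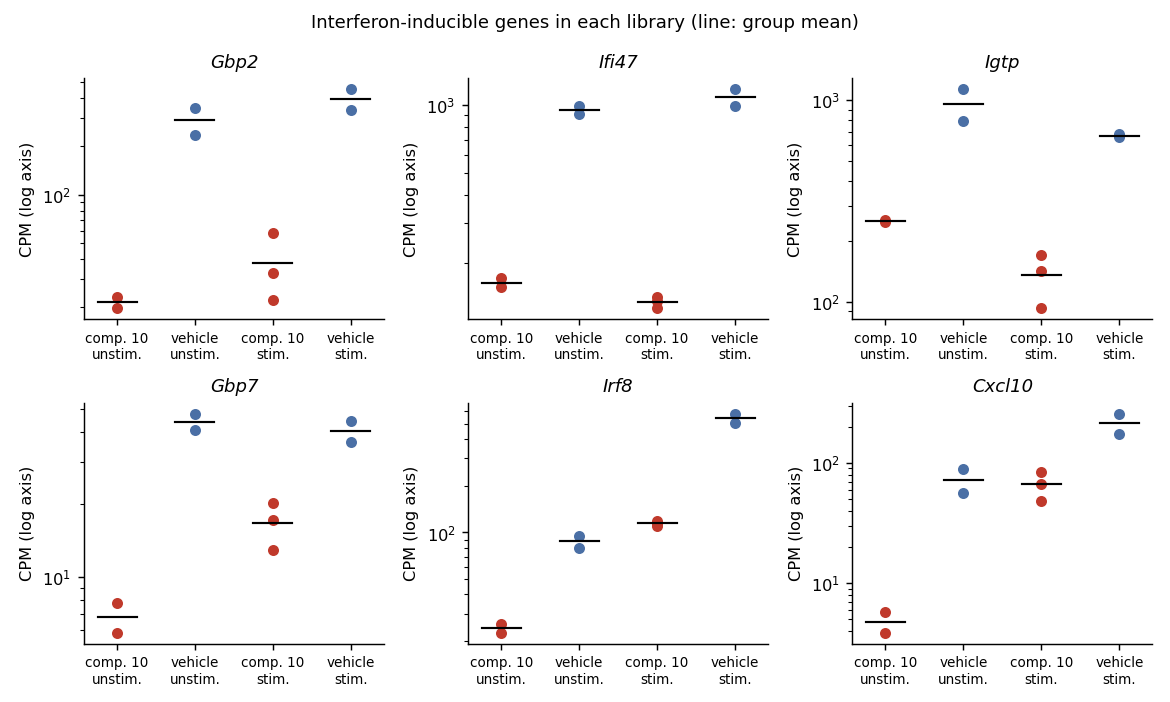
CPM (log axis) of 6 interferon-inducible genes in each library, red for compound 10 and blue for vehicle, with a line at the group mean, in unstimulated (left pair) and stimulated cells (right pair). In each state the compound 10 libraries lie below the vehicle libraries, for example Irf8 at 25.7 and 22.6 CPM with compound 10 and 95.3 and 80.0 CPM with vehicle in unstimulated cells.

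SR proteins bind exons and guide the choice of splice sites, and many of their own genes carry exons whose inclusion sends the transcript to decay. Of 16 tested SR factor genes 8 fell with compound 10 (50%, against 2.91% of all genes; list median -0.67). Srsf3 (chr17:29032628-29043373) had 64.5 and 47.5 CPM with compound 10, against 289 and 269 CPM with vehicle (-2.32, SE 0.26; adjusted p = 0.000471). Srsf1 had 19.7 and 18.5 CPM with compound 10, against 67.7 and 64.4 CPM with vehicle (-1.79, SE 0.19; adjusted p = 0.000366). In neither gene did the groups come near each other.

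Srsf5 had 72.3 and 76.3 CPM with compound 10, against 182 and 239.6 CPM with vehicle (-1.50, SE 0.22), and Srsf6 had 65.9 and 51.5 CPM, against 154 and 148 CPM (-1.37, SE 0.20). These 4 genes kept their call without any single library, though Srsf6 missed the threshold with limma on log2(TPM + 1) (adjusted p = 0.055). Srsf7 (-1.32, SE 0.27), Tra2a (-1.22, SE 0.26), Tra2b (-0.89, SE 0.21) and Srsf2 (-0.78, SE 0.21), named after their values were seen, lost theirs without 3 or more libraries, and the count dropped to 4 without vehicle library 1 or either compound 10 library and to 3 with limma on log2(TPM + 1). Of 21 hnRNP genes, which encode another class of RNA-binding splicing regulators, 2 were lower (9.52%, against 2.91% of all genes). These were Hnrnph1 (-1.52, SE 0.35) and Hnrnpm (-0.77, SE 0.20), and both calls were lost without each of 3 or more unstimulated libraries (adjusted p from 0.087 to 0.253). Among 9 splicing kinase genes of the CLK, DYRK and SRPK kinds 1 passed, Dyrk1b (11.1% lower, against 2.91% of all genes). It had 5.46 and 4.26 CPM with compound 10, against 18.7 and 12.3 CPM with vehicle (-1.67, SE 0.33). The call was lost without vehicle library 1 or either compound 10 library (adjusted p from 0.0694 to 0.115). Clk1, whose kinase phosphorylates SR proteins, had overlapping groups at 155 and 122 CPM with compound 10 and 95.6 and 149.9 CPM with vehicle.

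The balance of transcript forms differed between the groups in several SR genes, as values without a test. The annotation splits most of them into protein-coding forms and others (retained introns, decay targets and processed transcripts). Forms were split only for the 8 SR genes called lower, a choice made on their totals, and not for the other 8 tested. Of the genes split, 6 had both kinds. In 5 of these 6 the share of other forms was above both vehicle libraries in both compound 10 libraries. Among 6986 tested genes with both kinds, not chosen for lower totals, this held for 19.1%. For Srsf3, the other forms held 95.8% and 93.4% of the gene's counts with compound 10, against 80.8% and 84.5% with vehicle, and the coding form had 2.73 and 3.15 CPM with compound 10, against 55.5 and 41.6 CPM with vehicle. The other forms of Srsf3 were lower too, at 61.8 and 44.4 CPM with compound 10, against 233 and 227 CPM with vehicle. For Tra2b the share of other forms was 46.5% and 52.1% with compound 10, against 18.6% and 23.1% with vehicle. For Srsf5 it was 41.3% and 39.7% with compound 10, against 14.7% and 14.2% with vehicle, while the level of its other forms overlapped (29.9 and 30.3 CPM with compound 10, 26.8 and 34.0 CPM with vehicle).

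In Srsf2 the share was 20.3% and 21.9% with compound 10, against 4.95% and 9.24% with vehicle, so in all of these 4 genes the compound 10 libraries lay above the vehicle libraries. Srsf6 overlapped, at 39.8% and 46.1% with compound 10 and 42.8% and 31.3% with vehicle. Srsf1 had 1.27% and 2.13% with compound 10 and 0% and 0.937% with vehicle. Its other forms were near the floor and overlapped, at 0.25 and 0.39 CPM with compound 10 and 0 and 0.60 CPM with vehicle. Srsf7 and Tra2a had a single annotated form. The shares were not tested, an exact permutation test of 2 against 2 libraries being unable to go below p = 0.33, and kallisto's split of reads between overlapping forms carries an error of its own that the tables do not give. Over all genes, retained-intron forms took 2.39% to 2.99% of counts with compound 10 and 2.59% to 2.60% with vehicle, and forms annotated for nonsense-mediated decay 1.64% to 1.73% with compound 10 and 1.62% to 1.70% with vehicle.

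**Figure D3:**
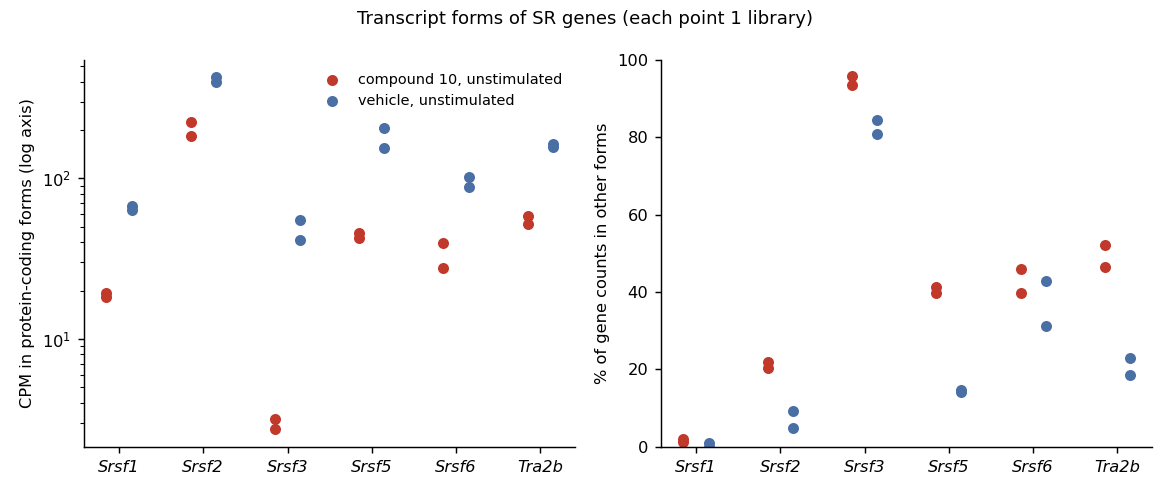
Left, CPM (log axis) summed over the protein-coding forms of 6 SR genes chosen among those called lower, and right, the percent of each gene's counts in other forms, red for the 2 compound 10 libraries and blue for the 2 vehicle libraries of unstimulated cells. The coding forms are lower with compound 10 in each gene, and the share of other forms is higher in 5 of them, with overlap in Srsf6.

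The genes furthest higher with compound 10 came from several pathways. Hspa1a (chr17:34969190-34972156), the inducible HSP70 chaperone gene, had 148 and 86.3 CPM with compound 10, against 16.3 and 15.6 CPM with vehicle (2.88, SE 0.31; adjusted p = 0.000492). Its near-identical copy Hspa1b had 22.6 and 27.0 CPM, against 5.19 and 2.77 CPM (2.64, SE 0.31), and the sum of the pair was 171 and 113 CPM with compound 10, against 21.5 and 18.4 CPM with vehicle (2.83, SE 0.29; adjusted p = 0.000291). Of the 18 tested genes of the chaperone list 3 were higher, this pair included (16.7%, against 4.45% of all genes). Another 1 was lower (5.56%, against 2.91% of all genes), and the list median was 0.10. Dnajb1, an HSP40 cochaperone gene (1.05, SE 0.27), and Dnajb4 of the same family (-1.02, SE 0.25) passed, and both calls were lost without any of the unstimulated libraries (adjusted p from 0.0698 to 0.212).

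Mgat1, which encodes the enzyme that starts complex N-glycans, had 175 and 180.3 CPM with compound 10, against 30.6 and 25 CPM with vehicle (2.68, SE 0.23; adjusted p = 0.000126). Net1, a guanine nucleotide exchange factor for small GTPases, had 129.6 and 103 CPM with compound 10, against 22.8 and 22.6 CPM with vehicle (2.36, SE 0.19; adjusted p = 0.000114). In both genes the libraries of a group were close together and the groups wide apart. Tsc22d1, a leucine zipper gene (2.46, SE 0.25), Incenp, a subunit of the chromosomal passenger complex (2.33, SE 0.23), Rgcc, a cell cycle regulator (2.21, SE 0.28), Selenop, the plasma selenium carrier (2.21, SE 0.23), Hdac7, a class IIa deacetylase (2.09, SE 0.27), and Golm1, a Golgi membrane protein gene (2.05, SE 0.25), were also higher. All of these calls held without any single library. Ube2m, the conjugating enzyme for NEDD8 (2.10, SE 0.52; adjusted p = 0.0497), was lost without 6 of the 9 libraries (adjusted p from 0.0841 to 0.237).

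On the lower side, genes outside the interferon and SR groups included Adk, adenosine kinase, at 24.9 and 22.9 CPM with compound 10, against 104 and 124 CPM with vehicle (-2.25, SE 0.21; adjusted p = 0.000235). Mpp7, a polarity scaffold gene, had 5.78 and 7.97 CPM with compound 10, against 39.3 and 39.7 CPM with vehicle (-2.52, SE 0.31). Cpne1, which encodes a calcium-dependent lipid-binding protein, had 23.5 and 15.8 CPM, against 100.5 and 113 CPM (-2.44, SE 0.31). Neurl3, a ubiquitin ligase gene, had 15.1 and 14.1 CPM, against 92.7 and 60.1 CPM (-2.38, SE 0.24). All 4 calls held without any single library.

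Genes of resting T cells passed in both directions, and those of the T cell receptor complex passed upward only. Il7r (chr15:9505788-9530176), the interleukin 7 receptor gene, had 203 and 169 CPM with compound 10, against 26.4 and 42.2 CPM with vehicle (2.44, SE 0.28; adjusted p = 0.000674). Of 23 naive and resting T cell genes 6 were higher (26.1%, against 4.45% of all genes). A further 3 were lower (13%, against 2.91% of all genes), and the list median was 0.13. Pik3ip1, an inhibitor of PI3 kinase, had 77.3 and 79.4 CPM with compound 10, against 22.5 and 20.2 CPM with vehicle (1.88, SE 0.22). Il6ra, the interleukin 6 receptor gene, had 112 and 119.5 CPM, against 26.4 and 41.6 CPM (1.77, SE 0.24). Along with Rasgrp2, a Rap1 activator (1.21, SE 0.17), these genes held without any single library.

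In the opposite direction, Slfn2, a Schlafen gene needed for T cell quiescence in mice, had 102 and 104 CPM with compound 10, against 427 and 329.6 CPM with vehicle (-1.87, SE 0.22; adjusted p = 0.000652). Ccr7, the receptor for lymph node entry, had 291 and 286 CPM with compound 10, against 903 and 557 CPM with vehicle (-1.34, SE 0.23), and Cxcr4, another chemokine receptor gene, had 6.82 and 4.48 CPM, against 20.2 and 33.0 CPM (-2.24, SE 0.47). Both of these, and Foxp1 (0.96, SE 0.18) and S1pr4 (0.92, SE 0.17), were named after their values were seen, and each lost its call without 2 or more unstimulated libraries (adjusted p from 0.0577 to 0.143). Klf2, a quiescence factor gene, had 646 and 592 CPM with compound 10 and 978 and 615 CPM with vehicle (-0.36, SE 0.28; adjusted p = 0.49).

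Of 22 genes of the T cell receptor complex and its proximal signalling 8 were higher (36.4%, against 4.45% of all genes; list median 0.56). Cd6, a scavenger receptor family member at the synapse, had 155 and 163 CPM with compound 10, against 45.2 and 33.8 CPM with vehicle (2.01, SE 0.25; adjusted p = 0.000928). Cd5, a related inhibitory receptor, had 134 and 118 CPM with compound 10, against 34.4 and 30.1 CPM with vehicle (1.97, SE 0.25; adjusted p = 0.000945). Both groups of libraries were tight, and both calls held without any single library. The other 6 were Grap2, an adaptor (1.42, SE 0.23), Cd3g, a receptor subunit (1.09, SE 0.20), the adhesion receptor gene Cd2 (1.00, SE 0.20), the kinase gene Lck (0.99, SE 0.22), Themis (0.87, SE 0.24) and the phosphatase gene Ptpn6 (0.85, SE 0.24). Each was lost in a leave-out: Grap2 without vehicle library 1 (adjusted p = 0.0502), Cd3g without either vehicle library or compound 10 library 1 (0.0519 to 0.0915), and the other 4 without any of the unstimulated libraries, so the count was 2 to 4. Of the 14 CD4 T cell identity genes 7 were higher (50%, against 4.45% of all genes; list median 0.75), 4 of which also stand in the receptor list, and their summed level was 2286 and 2074 CPM with compound 10, against 1426 and 1577 CPM with vehicle. Without a single unstimulated library 1 or 2 identity genes passed, and whether the summed level took part in the receptor genes' differences was not tested.

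Genes that restrain receptor signals went in both directions. Dgkz, the kinase that removes diacylglycerol, had 104 and 94.4 CPM with compound 10, against 41.8 and 41.7 CPM with vehicle (1.25, SE 0.19; adjusted p = 0.00312), and Grk6, a receptor kinase gene, had 68.2 and 57.1 CPM, against 14.8 and 16.7 CPM (1.99, SE 0.20). Both held without any single library, but with limma on log2(TPM + 1) Dgkz did not pass (adjusted p = 0.055). Cblb, an anergy ubiquitin ligase gene, had 43.3 and 36.4 CPM with compound 10, against 73.8 and 104 CPM with vehicle (-1.16, SE 0.24), but was lost without vehicle library 2 or either compound 10 library (adjusted p from 0.0802 to 0.127). Of the 21 diacylglycerol, Ras and anergy genes 4 were higher and 2 lower (19% and 9.52%, against 4.45% and 2.91% of all genes; median 0.10). Among 17 T helper lineage factors 5 were higher and 1 lower (29.4% and 5.88%; median 0.26), with Runx3, a CD8 and Th1 lineage factor, at 72.6 and 74.0 CPM with compound 10, against 23.4 and 28.1 CPM with vehicle (1.51, SE 0.19), and Id3, an inhibitor of E proteins, at 90.1 and 66.6 CPM, against 27.2 and 29.6 CPM (1.46, SE 0.21). These 2 held without any single library, while Rora (0.79, SE 0.20) and Gata3 (0.83, SE 0.21) were lost without any of the unstimulated libraries (adjusted p from 0.113 to 0.195).

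The compound is named for NFAT:AP-1. Of the genes tied to that complex few passed without a stimulus, and several had too few counts to show a difference. Of 12 textbook genes with composite elements 1 was lower (8.33%, against 2.91% of all genes; list median -0.24). This was Il4, the type 2 cytokine gene (chr11:53602982-53618669), at 3.44 and 4.04 CPM with compound 10, against 8.35 and 14.5 CPM with vehicle (-1.61, SE 0.30; adjusted p = 0.00868), from 53 and 73 counts against 116 and 225. The call was lost without vehicle library 2 or either compound 10 library (adjusted p from 0.0536 to 0.0906). Il2, the T cell growth factor gene, gave 8 and 8 counts with compound 10, against 8 and 14 with vehicle, which is too few to show a difference (-0.63, SE 0.50; adjusted p = 0.505).

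Interferon gamma itself, Ifng, had 38.3 and 27.3 CPM with compound 10, against 27.9 and 14.2 CPM with vehicle (0.64, SE 0.47; adjusted p = 0.478). The 2 groups overlapped in Ifng, and its part in the lower interferon-inducible genes was not tested. Tnf overlapped as well, at 12.5 and 10.2 CPM with compound 10 and 4.32 and 12.1 CPM with vehicle (0.46, SE 0.47; adjusted p = 0.628). Il2ra, the high-affinity interleukin 2 receptor gene, had 7.86 and 5.53 CPM with compound 10 and 6.63 and 9.48 CPM with vehicle (-0.27, SE 0.26), and Foxp3, the regulatory T cell factor, had 8.77 and 7.03 CPM with compound 10, against 9.07 and 20.3 CPM with vehicle (-0.90, SE 0.36; adjusted p = 0.157). Cd40lg, the helper ligand gene, had 17.0 and 13.4 CPM, against 18.4 and 22.6 CPM (-0.43, SE 0.25; adjusted p = 0.33). Il5, Il13, Il3, Csf2 and Il17a each stayed under 1 CPM in every unstimulated library. Of 21 inducible cytokines, Il4 was lower and Il6 higher (list median 0.36). That is 4.76% each way, against 2.91% of all genes lower and 4.45% higher. Il10 fell short of the threshold, at 0.26 and 0.33 CPM with compound 10, against 2.30 and 1.10 CPM with vehicle (-2.47, SE 0.70; adjusted p = 0.0629). DESeq2 called 2 genes of the list lower and 0 higher. Il6 rested on 9 and 4 counts with compound 10, against 0 and 0 with vehicle, at least 3.8-fold higher when the vehicle group is set to a floor of 3 counts in total (counting error only), and this call was lost without 6 of the 9 libraries (adjusted p from 0.0519 to 0.2).

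For the factors themselves, edgeR called 0 of 15 tested genes of NFAT, calcineurin and their regulators (1 at an unadjusted p under 0.05, and 1 lower by DESeq2; list median -0.01). Nfatc1 had 58.7 and 47.7 CPM with compound 10, against 62.7 and 69.0 CPM with vehicle (-0.31, SE 0.27; adjusted p = 0.557), and Nfat5 had 31.6 and 35.1 CPM, against 31.5 and 35.6 CPM (-0.01, SE 0.18). Ppp3ca, a calcineurin catalytic subunit, had 41.0 and 39.1 CPM, against 66.4 and 60.9 CPM (-0.67, SE 0.20; adjusted p = 0.0648). The list of AP-1 subunits with ATF, BATF and MAF relatives (14 tested, median 0.29) had Mafg (1.13, SE 0.20) and Jun (1.00, SE 0.18) higher, with Batf (-0.86, SE 0.21) lower. The shares were 14.3% higher and 7.14% lower, against 4.45% and 2.91% of all genes. Jun, the core AP-1 subunit, had 65.0 and 73.4 CPM with compound 10, against 36.5 and 32.7 CPM with vehicle. None of these 3 calls held in each leave-out: Mafg was lost without vehicle library 1 or compound 10 library 1, Jun without either vehicle library or compound 10 library 2, and Batf without any unstimulated library (adjusted p from 0.0517 to 0.195).

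Immediate-early genes answer to kinase signals within minutes. Of 24 tested 4 were higher and 1 lower (16.7% and 4.17%, against 4.45% and 2.91% of all genes, median 0.26). Zfp36, which encodes the mRNA decay factor tristetraprolin, had 334 and 265 CPM with compound 10, against 91.8 and 105 CPM with vehicle (1.61, SE 0.22; adjusted p = 0.00142), and it alone of the 5 held without any single library. Klf10 (1.32, SE 0.22) was lost without vehicle library 2 or compound 10 library 1 (adjusted p = 0.0599 and 0.0705), and Klf4 (0.80, SE 0.20) and Egr3 (-1.91, SE 0.49) without any of the unstimulated libraries (0.0776 to 0.209). Egr3, at 6 and 8 counts with compound 10 and 18 and 29 with vehicle, was near the limit of detection. Fos had 96.6 and 77.1 CPM with compound 10, against 61.0 and 63.6 CPM with vehicle (0.48, SE 0.19; adjusted p = 0.157), Egr1 had 143 and 86.9 CPM, against 64.2 and 77.8 CPM (0.69, SE 0.26; adjusted p = 0.141), and the groups of Nr4a1, a reporter of receptor signalling, overlapped at 412 and 319 CPM with compound 10 and 331 and 246 CPM with vehicle.

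**Figure D4:**
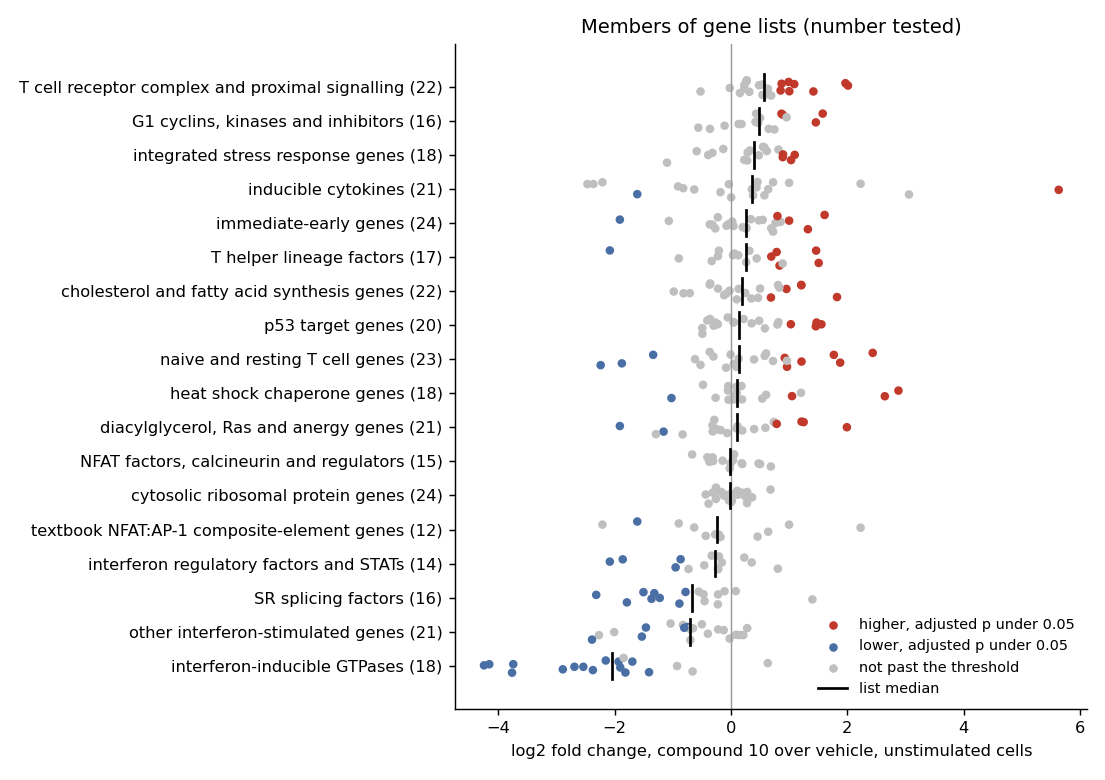
Each point is a tested gene of a list, placed by its log2 fold change (compound 10 over vehicle, unstimulated cells), red where higher and blue where lower at an adjusted p under 0.05, gray otherwise, with a bar at the list median and the number tested in parentheses. The GTPase list has its median at -2.04 and the SR list at -0.67, against -0.01 over all genes, while the NFAT and ribosomal protein lists lie around 0.

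Some stress and growth lists held a few higher genes, to be set against 4.45% of all tested genes. The lists of aryl hydrocarbon receptor targets, polyamine synthesis and ribosomal protein genes held 0. Of 18 integrated stress response genes 4 were higher (22.2%; median 0.40), among them Ddit3, the CHOP factor, at 31.5 and 27.9 CPM with compound 10, against 13.5 and 14.3 CPM with vehicle (1.10, SE 0.21). Of 20 p53 targets 4 were higher (20%; median 0.13), with the growth arrest gene Gadd45a at 63.4 and 55.3 CPM with compound 10, against 19.9 and 20.5 CPM with vehicle (1.55, SE 0.19; adjusted p = 0.00085). Of 16 G1 cyclin, kinase and inhibitor genes 4 were higher (25%; median 0.48), led by the inhibitor gene Cdkn2d at 107 and 105 CPM, against 36.9 and 34.0 CPM (1.58, SE 0.21). Gadd45a and Cdkn2d held without any single library, whereas Ddit3 was lost without either vehicle library or compound 10 library 1 (adjusted p from 0.0652 to 0.0952). Without a single unstimulated library the counts were 0 to 2 for integrated stress, 1 to 2 for G1 genes and down to 1 for p53 targets.

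Sqle, a cholesterol synthesis enzyme gene, had 21.5 and 19.1 CPM with compound 10, against 11 and 9.94 CPM with vehicle (0.95, SE 0.18), and was lost without either vehicle library or compound 10 library 1 (adjusted p from 0.0564 to 0.0952). It was 1 of 5 higher among 22 sterol and fatty acid genes (22.7%, against 4.45% of all genes; median 0.19), a count that was 0 or 1 without a single unstimulated library. Larp7, which encodes a partner of the 7SK RNA that restrains the elongation kinase P-TEFb, had 44.2 and 44.8 CPM with compound 10, against 18.3 and 16.6 CPM with vehicle (1.35, SE 0.20; adjusted p = 0.00224). It held without any single library and was the 1 gene of 20 elongation genes to pass (5% higher, against 4.45% of all genes). Of 15 circadian clock genes 3 were higher (20%; median 0.62), namely Ciart (0.98, SE 0.20), Nfil3 (1.10, SE 0.24) and Nr1d1 (1.65, SE 0.42), each lost without any of the 4 unstimulated libraries (adjusted p from 0.0532 to 0.216). Of 24 cytosolic ribosomal protein genes edgeR called 0, with 0 at an unadjusted p under 0.05, 0 by DESeq2 and a median of -0.02.

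The remaining lists held scattered calls, which are to be read against the 4.45% of all genes that were higher and the 2.91% that were lower. Of 20 NF-kB subunits and targets 1 was higher, Tnip2 (1.03, SE 0.26), and 2 were lower (5% and 10%), Traf1 (-0.93, SE 0.19) and Bcl3 (-1.25, SE 0.29). Tigit, an inhibitory receptor gene, had 13.1 and 10.7 CPM with compound 10, against 37.1 and 29.6 CPM with vehicle (-1.49, SE 0.24; adjusted p = 0.00351), and was 1 of 2 lower among 15 such receptors (13.3%), with Pdcd1, which encodes PD-1 (-1.11, SE 0.30). Cish (-1.42, SE 0.34) and Socs1 were lower and Socs3 (0.81, SE 0.19) higher among 14 STAT5 and cytokine feedback genes. Cd28, the costimulatory receptor, had 132 and 114 CPM with compound 10, against 65.8 and 70.2 CPM with vehicle (0.86, SE 0.20), and Gzma had 4.22 and 5.70 CPM, against 1.37 and 1.23 CPM (1.93, SE 0.33). Apart from Socs1, each gene named in this group lost its call without at least 1 unstimulated library, Tigit without compound 10 library 2 (adjusted p = 0.0521) and Gzma without vehicle library 2 or compound 10 library 2 (0.061 and 0.0554).

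The compound 10 effect in unstimulated cells was then set against that in stimulated cells, which shares no library with it. Of the 1031 genes called in unstimulated cells 679 were also called in stimulated cells, 65.9% of the 1031 and 21% of the 3234 called there (23.1% of all tested genes). The direction was the same for 663 and opposite for 16. Across the 14011 genes Pearson's r of the log2 fold changes was 0.407, a description across genes, which are not independent replicates.

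Several groups described above moved in both states. The interferon-inducible GTPases had a median of -2.04 in unstimulated and -2.14 in stimulated cells, with 14 and 16 of 18 lower (11.4% of all genes were lower in stimulated cells), and the SR genes a median of -0.67 and -0.64, with 8 lower in each. Il7r was higher by 2.44 in unstimulated and 3.18 in stimulated cells, where it had 145 ± 38.9 CPM with compound 10 (SD, n = 3), against 16.0 ± 0.813 CPM with vehicle (n = 2). Composite-element genes did differ in their counts, with 1 of 12 lower in unstimulated and 8 in stimulated cells (medians -0.24 and -1.41), and of these Il4 (interaction adjusted p = 0.00313) and Il2ra (0.0205) passed the test of the difference itself.

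That test, the interaction, called 144 genes (1.03%; 2052 at an unadjusted p under 0.05). The count depended on the settings, at 454 with DESeq2, 43 with the replicate number as a block and 22 with limma on log2(TPM + 1). The unstimulated effect was the more positive for 85 of the 144 (0.607% of all genes) and the more negative for 59 (0.421%). Of the 144, 94 had effects of opposite sign and 42 had a larger effect in unstimulated cells. Net1, the exchange factor gene, rose in unstimulated cells, whereas in stimulated cells it had 76.4 ± 5.28 CPM with compound 10 (SD, n = 3) and 79.0 ± 0.434 CPM with vehicle (n = 2; -0.05, SE 0.16), and the effects differed by 2.41 (SE 0.24; adjusted p = 0.00202). Stim2, a calcium sensor of the endoplasmic reticulum, had 84.2 and 92.9 CPM with compound 10, against 29.5 and 31.6 CPM with vehicle in unstimulated cells (1.53, SE 0.18), and 59.7 ± 2.38 CPM, against 75.7 ± 12.1 CPM, in stimulated cells (-0.34, SE 0.16), a difference of effects of 1.88 (SE 0.24; adjusted p = 0.00342).

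Arhgef3, another exchange factor gene, went opposite ways, higher by 1.41 (SE 0.24) in unstimulated and lower, at -1.40 (SE 0.21), in stimulated cells (difference 2.82, SE 0.32; adjusted p = 0.00251). Tnfrsf26, a TNF receptor family gene, had 27.6 and 22.7 CPM with compound 10, against 80.4 and 76.8 CPM with vehicle in unstimulated cells (-1.64, SE 0.20), and was higher in stimulated cells (0.67, SE 0.18; difference -2.32, SE 0.26). Faf1, a Fas-associated factor gene, followed the same pattern, at -1.11 (SE 0.17) and 0.69 (SE 0.15). Ciart was higher by 0.98 (SE 0.20) in unstimulated and lower, at -1.23 (SE 0.18), in stimulated cells.

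In other genes the stimulated effect was the larger. Arl5c, an ARF-like GTPase gene, differed by 1.35 (SE 0.26) in unstimulated and 4.70 (SE 0.28) in stimulated cells. Il16 differed by -0.29 (SE 0.21; adjusted p = 0.454) and 2.31 (SE 0.22), and Hnrnpu by 0.47 (SE 0.18; adjusted p = 0.133) and -1.44 (SE 0.16). Of the unstimulated effects named here, those of Arhgef3, Arl5c and Ciart were lost without 2 or more unstimulated libraries, vehicle library 2 among them (adjusted p from 0.0554 to 0.127), while the interaction of each of the 9 genes held without any single library. With limma on log2(TPM + 1) the interactions of Net1, Arhgef3 and Arl5c passed, those of the other 6 did not (adjusted p from 0.0651 to 0.316), and the unstimulated calls of Stim2 (0.0621) and Faf1 (0.129) were lost as well.

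**Figure D5:**
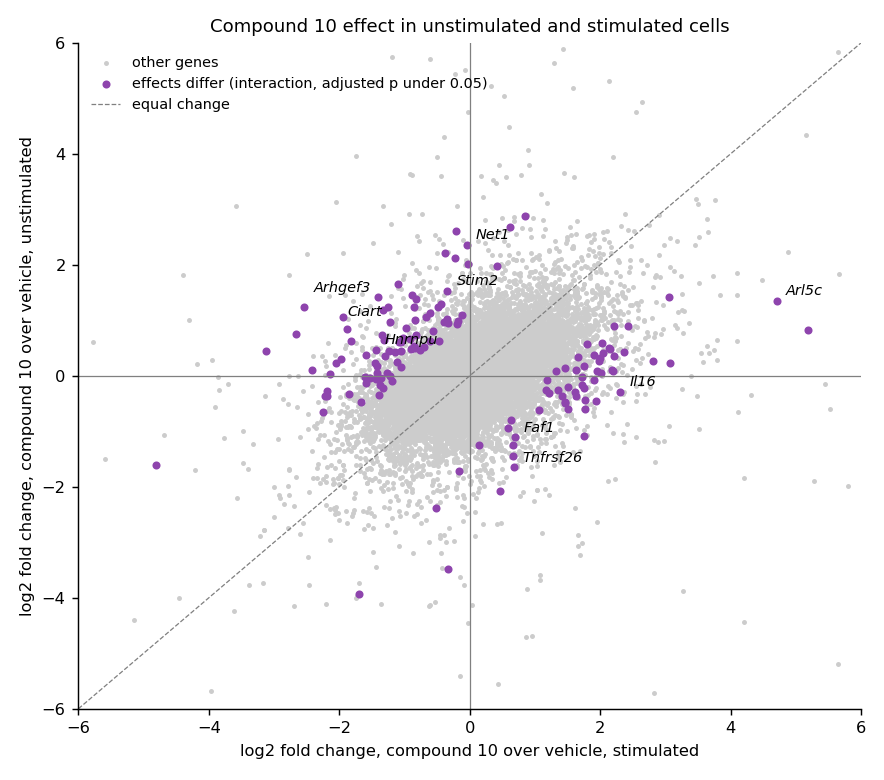
Log2 fold change of compound 10 over vehicle in unstimulated cells (vertical axis) against that in stimulated cells (horizontal axis) for the tested genes, purple where the 2 effects differ (interaction, adjusted p under 0.05), with 9 named of the protein-coding genes that had the smallest p at a mean log2 CPM of at least 4 in unstimulated cells and the dashed line at equal change. Axes end at 6 on the log2 scale and 40 genes lie beyond them, and Net1 and Stim2 sit above 0 in unstimulated and near 0 in stimulated cells.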

How the data were processed

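RNA of splenic CD4+ T cells was sequenced after a SMART-seq preparation. The submitters' processing notes list cutadapt, kallisto and mm10, without versions; the annotation behind kallisto was not given in the sources used here. Per the file headers, each table gives estimated counts of transcripts as the authors deposited them, not normalized between libraries. TPM values (length-scaled, with a constant total) were deposited in the same tables and used in 1 alternative, as were the effective lengths.

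Of 109617 transcripts 108214 matched GENCODE M21 with the identifier's version ignored. The others carried 0.542% to 0.829% of a library. Sums over the transcripts of each of 45321 genes were rounded. With edgeR 4.0.16 in R 4.3.3, filterByExpr left 14011 genes, libraries were scaled by TMM, and all 9 libraries were fitted together, 1 term per group (glmQLFit, robust, 5 residual degrees of freedom). Contrasts were tested 2-sided with glmQLFTest, and p-values adjusted by Benjamini-Hochberg over the genes tested (threshold 0.05). The test was checked on simulated counts. DESeq2 1.42.0 and limma 3.58.1 (log2 of TPM plus 1) were alternatives, with other scalings and filters, a replicate block, a length offset and each library left out. Libraries of a group differed by more than sampling noise, which does not show that they came from separate mice or cultures. Each was counted as 1 sample. Unstimulated libraries held 10669821 to 16784788 counts, and the median SE was 0.325.

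Named genes were the 12 furthest up and down whose groups did not overlap and whose log2 CPM averaged 4 or more, up to 4 members of each of 48 lists by p, all tested cytokine, NFAT:AP-1, immediate-early and NFAT genes, and the 10 with the smallest interaction p. Some of these are not reported here and were left out of the named genes and lists, though not of the fit. Members and lists were chosen with earlier results of these data known.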

Additional observations from a re-analysis of the deposited data

Results flagged for a closer look

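The compound 10 effect differed between unstimulated and stimulated cells in 33 of 269 named genes by the interaction test (edgeR's quasi-likelihood test, adjusted p from 0.00202 to 0.0446). Of these named genes 9 were chosen for a small p in this same test, so the count is a description. Values below are the unstimulated minus the stimulated log2 fold change of compound 10 over vehicle.

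Among genes furthest higher or lower in unstimulated cells, the difference was 2.41 for Net1, 2.60 for Rgcc, 2.07 for Mgat1, 2.03 for Hspa1a, -2.23 for Cxcl10 and -1.86 for Neurl3. Hspa1a and its copy Hspa1b summed gave 1.96 (adjusted p = 0.028). In cytokine, chemokine and receptor genes it was 3.20 for Il4, 3.57 for Il17f, 3.00 for Xcl1, 1.91 for Il2ra, -2.60 for Il16 and -2.32 for Tnfrsf26. Il4, Il17f, Xcl1 and Il2ra were lower with compound 10 in stimulated cells (log2 fold changes of -4.81, -3.13, -1.94 and -2.18), and of these Il4 was also lower in unstimulated cells (-1.61).

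For T cell surface and signalling genes the difference was 2.05 for Cd6, 1.85 for Cd2, -1.64 for Grap2, 2.51 for Btla, 2.08 for Vsir, -1.75 for Rcan3, 2.09 for Spry2, 1.88 for Stim2, 2.82 for Arhgef3, -3.35 for Arl5c and -1.80 for Faf1. Among regulators of transcription, feedback, survival and RNA it was 1.59 for Ikzf2, -1.97 for Btg2, -1.52 for Traf1, -1.91 for Bcl3, -1.54 for Socs1, 1.37 for Socs3, -1.67 for Bcl2, 2.74 for Nr1d1, 2.20 for Ciart and 1.91 for Hnrnpu.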

How the results depend on the processing

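The count of 1031 genes in unstimulated cells was 1569 with no filter on low counts, 231 with limma on log2(TPM + 1), and 174 to 1457 with a single library left out. Under the other planned settings it lay between 761 and 1530. With the replicate number as a block (replicate block) it was 878, and the interaction count 43. The labels do not state that numbers mark shared animals, and the unstimulated differences between library 1 and 2 correlated at -0.101 between the groups (-0.101 to 0.326 over the 6 pairs of groups), so a block with crossed numbers was added after seeing the data and gave 575 and 22. The interaction count of 144 was 454 with DESeq2, 512 with no filter, 22 with limma on TPM, 83 with a length offset and 29 to 264 with a library left out. Its split of 85 higher and 59 lower was 65 and 81 under upper-quartile scaling, which put the median of all genes at -0.12. As shares of TPM, compound 10 minus vehicle was -3.64 percentage points for protein-coding forms (-0.687 as counts), where the groups overlapped and the sign turned without vehicle library 1 (1.90, and 0.869 as counts), and -0.093 for antisense forms (-0.036).

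Of 5495 values of named genes under alternatives, 4876 kept direction and side of the threshold, 496 lost the call, 123 gained one and 0 reversed. The causes were not tested. With 2 libraries a group, calls at a few counts, such as those of Il6 and Egr3, are fragile, as the leave-outs show, and intervals and floors cover counting error only.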

Other observations

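Further lists gave 1 to 3 calls each. Of 8 Gimap GTPase genes, which serve lymphocyte survival, 1 was lower in unstimulated cells with compound 10 and of 22 glycolysis and hypoxia genes 2 were higher. Among 14 BCL2 family genes 1 was higher, among 12 regulatory T cell genes 1 was higher, and among 22 genes of the MYC network and ribosome biogenesis 2 were higher. Of 21 NRF2 antioxidant genes 1 was higher and 1 lower, of 14 mRNA decay factors 1 was higher and 2 were lower, and of 12 MAP kinase feedback genes 2 were higher. Against these stand 4.45% of all tested genes higher and 2.91% lower.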
